A study of Mus musculus with 14 samples.

Results

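The muscle acetylcholine receptor and the machinery that gathers it at the synapse were followed through 10 genes: the receptor subunits Chrna1 (α), Chrnb1 (β), Chrnd (δ), Chrng (γ) and Chrne (ε), and Agrn (agrin), Lrp4, Musk, Dok7 and Rapsn (rapsyn). They were picked by gene symbol from a table of 24016 RefSeq transcripts. All 10 were found, each as 1 transcript, and all 10 passed the filter of a mean FPKM of at least 1 over the libraries, as did 14312 transcripts in all. The RNA was that of C2C12, mouse myoblasts in continuous culture, which leave the cell cycle and fuse into myotubes when serum is lowered. Cells carried either a control siRNA (siCtrl) or a pool of siRNAs against Klf5 (siKlf5), and polyadenylated RNA was sequenced on days 0, 1, 2 and 3 after the change from growth medium to differentiation medium, which holds horse serum. Each siRNA and day had 1 library, 8 in all, from 1 cell line in culture. Time in differentiation medium and day are the same variable here, so they cannot be told apart, and what the control siRNA targets was not given in the sources used here. The 6 ChIP-seq samples of the series were not analysed here.

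The nicotinic receptor of muscle is a pentamer of α subunits with β, δ and either γ or ε. The γ form belongs to fetal, denervated or cultured muscle, and ε replaces γ as the synapse matures. Agrin released by the motor nerve binds LRP4 on the muscle surface, LRP4 activates the receptor tyrosine kinase MuSK, the adaptor DOK7 sustains MuSK activity from inside the cell, and rapsyn anchors the receptors in clusters. Transcription of the subunit genes in myotubes depends on E-boxes, short motifs bound by MyoD and myogenin, while expression under the synapse also uses the N-box, a motif of the ETS factor GABP.

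The promoters carried such motifs in differing number. RefSeq gave promoter entries for 7 of the 10 genes (9 windows on GRCm38.p6, since Agrn and Dok7 have several starts). Chrnd, Rapsn and Lrp4 had none. The 250 bases before each start were searched on both strands for the E-box CANNTG (N is any base), its form CAGCTG, which is counted within CANNTG as well, the N-box TTCCGG and the GC box CCGCCC, a class of motif bound by Sp1 and many Krüppel-like factors. The stretches below are those of Chrna1 and Chrng, the 2 most abundant members, of Chrne, which takes the place of Chrng in mature muscle, and of Musk. Each matched the mm9 genome exactly and only in 1 place, ending at the base before the start of the transcript that was counted: chr2:73418396-73418645 (minus strand) for Chrna1, chr1:89102136-89102385 (plus) for Chrng, chr11:70432697-70432946 (minus) for Chrne and chr4:58298584-58298833 (plus) for Musk. Capitals mark E-boxes and, in Chrne, also the N-box, read there as CCGGAA on the strand of the gene.
Chrna1: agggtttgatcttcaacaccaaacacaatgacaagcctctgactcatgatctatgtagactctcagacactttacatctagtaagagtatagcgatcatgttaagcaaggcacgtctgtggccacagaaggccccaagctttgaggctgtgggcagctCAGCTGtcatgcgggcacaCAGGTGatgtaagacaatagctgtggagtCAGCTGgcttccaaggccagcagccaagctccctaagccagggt
Chrng: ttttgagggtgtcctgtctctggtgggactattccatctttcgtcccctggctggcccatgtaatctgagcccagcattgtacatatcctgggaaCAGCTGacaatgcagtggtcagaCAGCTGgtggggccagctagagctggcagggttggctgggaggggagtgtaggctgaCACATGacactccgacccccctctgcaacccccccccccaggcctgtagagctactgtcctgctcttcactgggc
Chrne: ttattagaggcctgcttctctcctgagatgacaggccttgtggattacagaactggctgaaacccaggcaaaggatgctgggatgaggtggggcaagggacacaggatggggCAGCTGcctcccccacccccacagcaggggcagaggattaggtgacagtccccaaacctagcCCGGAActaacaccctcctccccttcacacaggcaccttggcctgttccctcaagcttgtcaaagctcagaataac
Musk: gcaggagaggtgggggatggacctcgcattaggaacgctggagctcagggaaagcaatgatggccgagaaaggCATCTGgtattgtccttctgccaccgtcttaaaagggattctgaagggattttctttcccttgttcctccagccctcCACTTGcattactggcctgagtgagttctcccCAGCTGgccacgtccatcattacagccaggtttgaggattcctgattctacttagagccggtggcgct

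Chrna1 and Chrng each held 3 E-boxes, 2 of them CAGCTG, at -92 and -44 in Chrna1 and at -155 and -132 in Chrng (first base, counted back from the start). Of all 32851 promoters in the RefSeq table, 13% held CAGCTG and 1.26% held it at 2 or more places. Chrne had 1 CAGCTG at -138 and an N-box at -76, and Musk had 3 E-boxes, with CAGCTG at -68. Across the members CAGCTG was found in 4 of 9 windows, and the wider CANNTG in 7 of 9, beside 66.2% of all promoters. The N-box stood in 1 window, that of Chrne, beside 12% of all promoters. GC boxes were found in 5 windows, those of Chrnb1, Agrn and Dok7, beside 32.7% of all promoters, and in none of the windows printed above. The authors name GT-box or CACCC sites for Krüppel-like factors. These were not searched for, so a window without a GC box may still hold such a site. These matches describe letters, not binding.

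**Figure D1:**
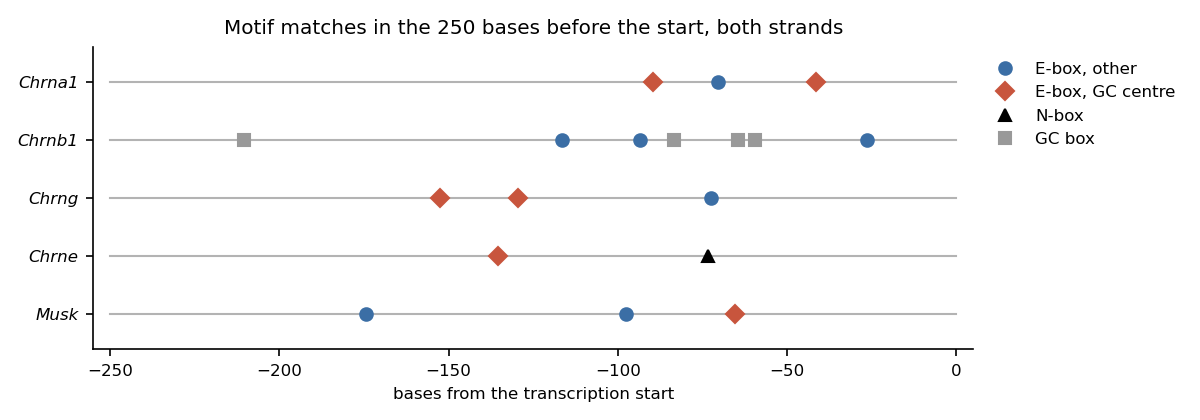
Motif matches in the 250 bases before the transcription start of Chrna1, Chrnb1, Chrng, Chrne and Musk, placed by distance from the start in bases on the horizontal axis. Diamonds are the CAGCTG form of the E-box, circles other E-boxes, the triangle the N-box and squares GC boxes; Chrnb1 is the only gene of the 5 drawn with GC boxes, 4 of them.

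Chrnd and Chrng are neighbours on chromosome 1, on the same strand and with 5740 bases between them (mm9, plus strand, Chrnd chr1:89087172-89096645 and Chrng chr1:89102386-89108410). Chrne (chr11:70428385-70432696) and Chrnb1 (chr11:69597538-69609439) lie on the minus strand of chromosome 11. On chromosome 2 are Chrna1 (chr2:73401338-73418395, minus), Rapsn (chr2:90875784-90885886, plus) and Lrp4 (chr2:91297688-91354058, plus). Musk (chr4:58298834-58387175, plus) and Agrn (chr4:155539399-155571597, minus) lie on chromosome 4 and Dok7 (chr5:35399733-35430480, plus) on chromosome 5. All are protein-coding genes in GENCODE vM1, the annotation of the same build. The reads were counted over both strands, but exons of other genes touched only Rapsn, which shares 4 bases (0.222% of its exon bases) with an antisense transcript. Chrne holds an opposite-strand transcript inside its span with no exon base in common.

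The targeted gene behaved as labelled. Klf5 stood at 224, 381, 614 and 933 FPKM in siCtrl cells on days 0 to 3 and at 35.1, 160, 192 and 211 in siKlf5 cells, which is 0.157, 0.419, 0.313 and 0.227 of the control value. FPKM values here are as deposited, per kilobase of exon and per library total set to 10000000, so they are larger than FPKM on the usual scale. At most 3 reads were kept per position, which can lower the values of short, abundant transcripts. Orders and ratios between genes are therefore approximate, and the size of this effect was not tested. Recovered depth was 7850497 to 20301506 reads, lowest for siCtrl on day 1 and highest for siCtrl on day 2. All 8 muscle markers (among them Myod1, Des, Myog and Ckm) were expressed, with a summed level of 3294 to 12629 FPKM. Of 8 motor neuron markers Slc18a3, Isl1 and Snap25 were at 0 in every library and Chat was at 0 in all but 1, and the summed level of the 8 was 0.197 to 2.31 FPKM (0.197 to 1.54 in siCtrl, 0.281 to 2.31 in siKlf5). That of 5 Schwann cell markers was 3.75 to 7.63 FPKM (4.10 to 6.20 and 3.75 to 7.63). The libraries are bulk RNA, so fewer cells of a kind and less RNA per cell cannot be told apart in any value that follows.

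Before differentiation the cells already held α, β and δ message but little γ. On day 0 the order in siCtrl was Chrna1 (634 FPKM), Chrnb1 (448), Chrnd (326), Rapsn (322), Chrng (126), Musk (77.4), Lrp4 (74.5), Dok7 (68.3), Agrn (68.2) and Chrne (0.967, from 3 reads). Chrnd and Rapsn did not differ beyond counting error, nor did neighbours among Musk, Lrp4, Dok7 and Agrn. By day 3 the order was Chrng (1582), Chrna1 (1263), Chrnb1 (1123), Chrnd (953), Rapsn (558), Lrp4 (271), Musk (192), Dok7 (139), Agrn (54.9) and Chrne (17.0), and no 2 neighbours had overlapping 95% intervals. Chrng thus went from the fifth to the first place in the order. In siKlf5 cells on day 3 Chrng was likewise first at 2191 FPKM and Chrne last at 10.3, while Chrnd (1108) and Chrnb1 (1054) overlapped, as did Musk (288) and Lrp4 (256). All intervals of levels are 95% exact Poisson intervals, taken on reads over 6 because reads came in clumps of that size, and they reflect error of counting alone.

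**Figure D2:**
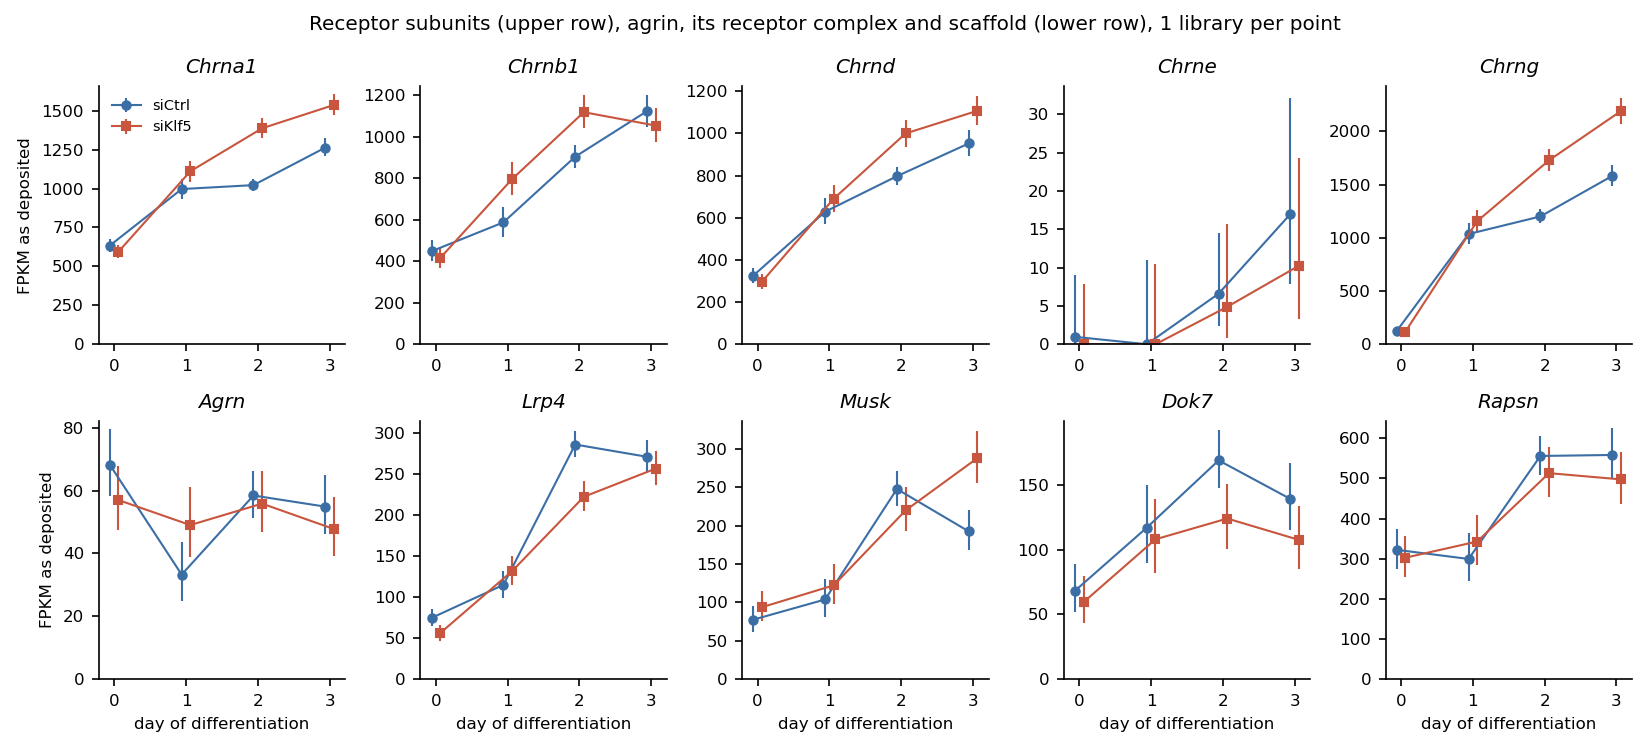
Deposited FPKM of the 10 genes (vertical axes from 0, a scale for each gene) against day of differentiation, with 1 library per point, circles for siCtrl and squares for siKlf5, and 95% counting intervals as bars. Chrng climbs from 126 to 1582 in siCtrl and from 119 to 2191 in siKlf5, 8 further genes end above their day 0 level in both, and Agrn does not.

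The first comparison asked how these genes change as myoblasts become myotubes. Averaged over both siRNAs, 9 of the 10 genes were called higher on day 3 than on day 0 and none lower, at limma adjusted p under 0.05. The rises ran from 0.76 (Rapsn) to 3.93 (Chrng) on the log2 scale among the 8 with many reads. Agrn was lower on day 3 in both siRNAs but was not called. The fit was limma on log2(FPKM + 0.1) with terms for siRNA and day over the 8 libraries, which leaves 3 residual degrees of freedom, with Benjamini-Hochberg adjustment over 14312 transcripts. Of all transcripts, 12.8% were called higher and 17.6% lower in the same contrast. Below, counts of genes that rose or fell in limma contrasts are counts of such calls. The median change was -0.09 over all transcripts. It was 1.72 over the 5 subunits and 0.94 over the other 5 genes.

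Chrng had the largest change of the genes with many reads. Its level was 126, 1036, 1201 and 1582 FPKM on days 0, 1, 2 and 3 in siCtrl and 119, 1157, 1729 and 2191 in siKlf5, so that both day 0 libraries lay far below all others. Most of the step fell in the first day, at 8.25-fold in siCtrl and 9.74-fold in siKlf5. Over both siRNAs the rise to day 1 was 3.16 ± 0.15 (log2 ± SE, limma adjusted p = 2.55e-05), and to day 3 it was 3.93 ± 0.15 (adjusted p = 3.80e-06).

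The other subunits of the fetal receptor rose by less and from a higher start. Chrna1, which carries the main part of the acetylcholine site, was at 634, 997, 1022 and 1263 FPKM in siCtrl and 594, 1111, 1387 and 1537 in siKlf5, a rise to day 3 of 1.18 ± 0.14 on the log2 scale (limma adjusted p = 0.000618). Chrnd was at 326, 629, 797 and 953 in siCtrl and 297, 691, 1000 and 1108 in siKlf5 (1.72 ± 0.13, adjusted p = 6.87e-05). For each of these genes, every library of days 1 to 3 lay above both libraries of day 0. Chrnb1 had 448, 587, 904 and 1123 FPKM in siCtrl and 416, 796, 1119 and 1054 in siKlf5 (1.33 ± 0.15, limma adjusted p = 0.000588). From day 2 to day 3 it was 1.24-fold higher in siCtrl (log2 interval 0.18 to 0.45) and 0.942-fold in siKlf5 (-0.24 to 0.07).

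Chrne, the adult subunit, stayed near the floor. It had 0.967, 0, 6.61 and 17.0 FPKM in siCtrl (3, 0, 35 and 55 reads) and 0, 0, 4.89 and 10.3 in siKlf5 (0, 0, 15 and 29 reads). The 4 libraries of days 2 and 3 lay above the 4 of days 0 and 1. In siCtrl the ratio of day 3 to day 0 was 16.0-fold with a log2 counting interval of 0.58 to 14.24, the lower end being set by only 3 reads. The limma value of 5.35 (adjusted p = 0.0221) rests on the pseudocount, since day 0 of siKlf5 is at 0, and is no estimate of the fold. That call held in 8 of the 15 fits that tested the gene and was lost when siCtrl day 2, siCtrl day 3, siKlf5 day 0, siKlf5 day 2 or siKlf5 day 3 was left out (adjusted p = 0.0514 to 0.117).

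The make-up of the receptor message moved toward γ between day 0 and day 1, while ε stayed a small share throughout. Chrng was 8.18% of the summed FPKM of the 5 subunits in siCtrl on day 0 and 31.9%, 30.6% and 32.0% on days 1 to 3. In siKlf5 the shares were 8.33%, 30.8%, 33.0% and 37.1%. Relative to Chrna1, Chrng went from 0.198 on day 0 to 1.25 on day 3 in siCtrl and from 0.200 to 1.43 in siKlf5. Chrne made up 1.06% of the sum of Chrng and Chrne in siCtrl on day 3 and 0.466% in siKlf5, so γ message exceeded ε message 93.0-fold and 213-fold. These ratios are rough, since they rest on 55 and 29 Chrne reads. The log2 ratio of Chrne between the siRNAs on day 3 had a counting interval that held 0 (-2.68 to 1.01). The share of Chrnb1 on day 3 was 22.8% in siCtrl and 17.9% in siKlf5, and that of Chrnd 19.3% and 18.8%. These shares come from FPKM, which divides by exon length but does not correct for the limit of 3 reads per position. They concern message only.

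**Figure D3:**
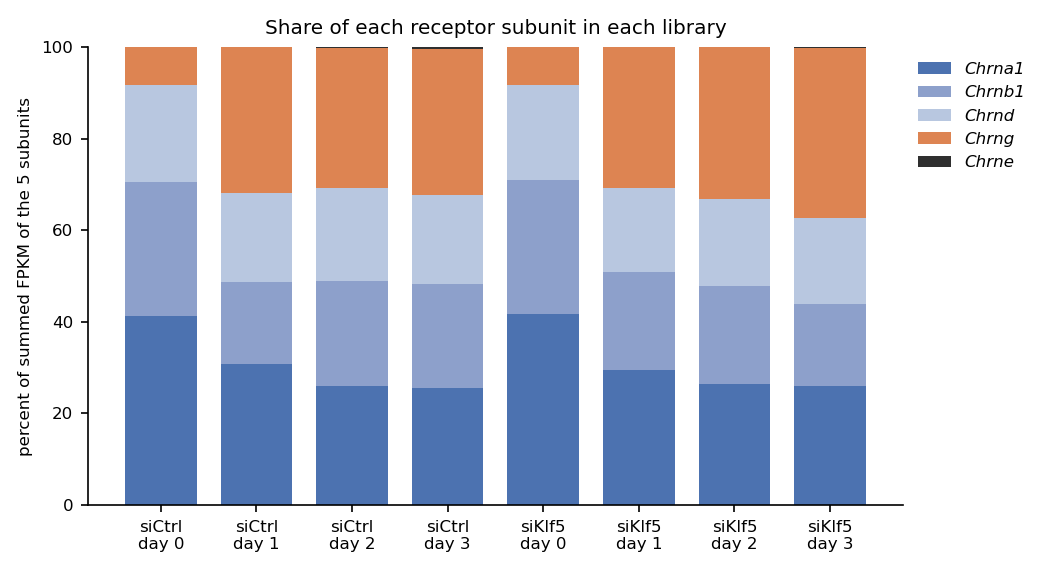
Share of each subunit in the summed FPKM of the 5 receptor subunits (vertical axis, percent, from 0 to 100) in each of the 8 libraries, 1 bar per library. The Chrng share is 8.18% and 8.33% in the day 0 libraries and 30.6% to 37.1% in the other 6; Chrne is at most 0.345%.

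Of the clustering genes, Lrp4 and Musk rose the most. Lrp4, the agrin receptor, was at 74.5, 115, 286 and 271 FPKM in siCtrl and 56.0, 131, 222 and 256 in siKlf5, up by 2.03 ± 0.17 (log2 ± SE) by day 3 (limma adjusted p = 0.000125). Musk, the kinase, was at 77.4, 104, 248 and 192 in siCtrl and 93.6, 122, 220 and 288 in siKlf5 (1.47 ± 0.18, adjusted p = 0.00076). Its rise to day 1 was 0.40 ± 0.18 (adjusted p = 0.169) and did not pass. In siCtrl both genes took their largest daily step from day 1 to day 2, 2.49-fold for Lrp4 and 2.39-fold for Musk. In siKlf5 that step was 1.80-fold for Musk, whereas Lrp4 went up 2.34-fold in the first day and 1.69-fold in the next. The siCtrl step ran from the shallowest library to the deepest, and whether depth shaped it was not tested. From day 2 to day 3 Musk changed 0.777-fold in siCtrl and 1.31-fold in siKlf5.

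Dok7 and Rapsn rose the least of those called. Dok7, the activator of MuSK, had 68.3, 117, 169 and 139 FPKM in siCtrl and 59.5, 108, 124 and 108 in siKlf5 (0.94 ± 0.15, limma adjusted p = 0.00267). Rapsn, the scaffold, had 322, 299, 556 and 558 in siCtrl and 303, 343, 513 and 498 in siKlf5, with 0.04 ± 0.12 by day 1 (adjusted p = 0.879) and 0.76 ± 0.12 by day 3 (adjusted p = 0.00244). For Rapsn the 4 libraries of days 2 and 3 lay above the 4 of days 0 and 1, while for Dok7 only the day 0 libraries lay below all others. Without siCtrl day 3 the calls of Dok7 (0.88, adjusted p = 0.0542) and Rapsn (0.67, adjusted p = 0.0614) were lost, and that of Rapsn also without siKlf5 day 0 (0.73, adjusted p = 0.0572). Since rapsyn binds the receptor, its message was also set against Chrna1: the ratio was 0.508, 0.300, 0.544 and 0.442 on days 0 to 3 in siCtrl and 0.509, 0.309, 0.370 and 0.324 in siKlf5.

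Agrn was the member without a called change. It had 68.2, 33.3, 58.4 and 54.9 FPKM in siCtrl and 57.0, 49.0, 55.8 and 47.8 in siKlf5, with a limma day 3 difference of -0.28 ± 0.25 (95% interval -0.87 to 0.30, adjusted p = 0.442). The lowest value, siCtrl on day 1, came from 313 reads in the shallowest library. The table has 1 transcript for the gene and does not separate the nerve form of agrin from the form muscle makes.

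Timing across the members can be read from the calls per day. Against day 0, limma called 6 members higher on day 1 (Chrna1, Chrnb1, Chrnd, Chrng, Lrp4 and Dok7), where 6.82% of all transcripts rose and 9.93% fell. On day 2 it called 8, with Musk and Rapsn added, beside 11.5% higher and 11.6% lower of all transcripts. No member was called lower on any day. These 3 contrasts share the day 0 libraries.

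Each siRNA was also read by itself, with no test since each time point is a single library. From day 0 to day 3, 7 of the 10 genes were at least 2-fold higher in siCtrl, where 15.5% of all transcripts were so and 12.7% were at least 2-fold lower. In siKlf5 it was 7 too, beside 14.9% and 12.4% of all transcripts. The lists differed by 1 gene each way near the cutoff: Chrna1 was 1.99-fold in siCtrl and 2.58-fold in siKlf5, and Dok7 2.04-fold and 1.81-fold. The median log2 change over the 10 genes was 1.32 in siCtrl and 1.49 in siKlf5, against -0.07 and -0.08 over all transcripts. Median-ratio scaling would add 0.11 to 0.12 to each of these differences and upper-quartile scaling 0.09 to 0.12, which turns no member's direction.

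**Figure D4:**
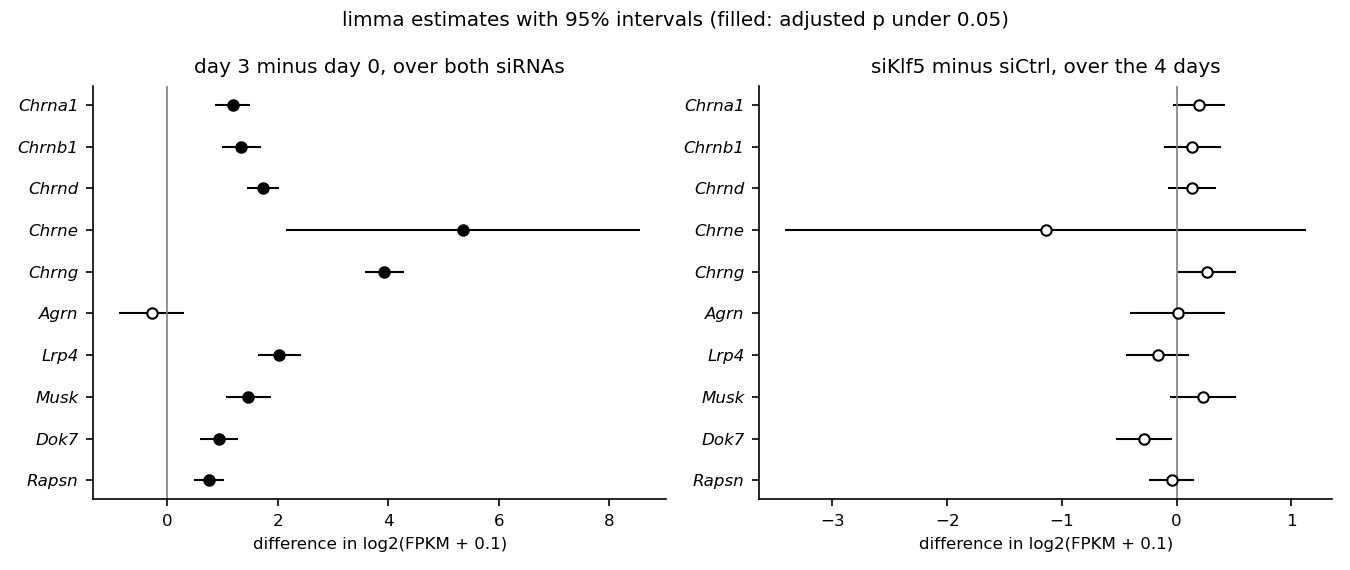
limma estimates for the 10 genes as differences in log2(FPKM + 0.1) with unadjusted 95% intervals, day 3 minus day 0 over both siRNAs on the left and siKlf5 minus siCtrl over the 4 days on the right (the axes differ in range). Filled points have an adjusted p under 0.05 over all transcripts: 9 of 10 on the left and 0 of 10 on the right.

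The second comparison asked what loss of Klf5 did to these genes. None of the 10 was called different between siKlf5 and siCtrl over the 4 days, with limma adjusted p of 0.463 to 0.992. Without adjustment 2 of the 10 passed 0.05, Chrng and Dok7, as did 9.60% of all transcripts. Few transcripts were called at all, 0.00699% higher and 0.0559% lower, and Klf5 was one of them (-1.94 ± 0.20 on the log2 scale, adjusted p = 0.0244). The estimates had these 95% intervals: 0.27 for Chrng (0.02 to 0.52), 0.20 for Chrna1 (-0.03 to 0.42), 0.14 for Chrnb1 (-0.11 to 0.39) and 0.14 for Chrnd (-0.07 to 0.34). The intervals of Chrna1, Chrnb1 and Chrnd held 0, with lower ends of -0.03, -0.11 and -0.07, and that of Chrng lay above 0 before adjustment.

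Of the clustering genes, all but Dok7 gave intervals that held 0. The estimates were 0.23 for Musk (-0.06 to 0.52), 0.01 for Agrn (-0.41 to 0.42), -0.04 for Rapsn (-0.24 to 0.15), -0.16 for Lrp4 (-0.44 to 0.11) and -0.28 for Dok7 (-0.53 to -0.04). Dok7 was lower in siKlf5 on 4 of 4 days (0.872, 0.923, 0.734 and 0.773 of control), but beyond counting error on day 2 only. Chrne had -1.14 (-3.41 to 1.13), a value set by libraries at 0. The median over the 5 subunits was 0.14 and over the other 5 genes -0.04, beside 0.01 over all transcripts.

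On single days the α, β, γ and δ subunits had ratios above 0 on days 1 and 2. On day 1 siKlf5 exceeded siCtrl by 0.44 (log2 ratio, interval 0.21 to 0.67) for Chrnb1, its largest ratio of the 4 days, and by 0.16 (0.03 to 0.28) for Chrna1, while Chrng (0.16, -0.03 to 0.35) and Chrnd (0.14, -0.06 to 0.33) had intervals that held 0. The median of these 4 was 0.16 on day 1, beside 0.03 over all transcripts and -0.06 over the 298 other transcripts whose mean FPKM lay within the range of the 4. On day 2 siKlf5 exceeded siCtrl by 0.53 (0.41 to 0.64) for Chrng, by 0.44 (0.35 to 0.53) for Chrna1, by 0.33 (0.21 to 0.45) for Chrnd and by 0.31 (0.17 to 0.44) for Chrnb1. Their median was 0.38, beside -0.03 over all transcripts and 0.19 over the 298 of like level, 91.3% of which were above 0 on that day. The day 2 pair also differed most in depth, at 20301506 reads in siCtrl and 11808641 in siKlf5. Whether depth and the limit of 3 reads per position shaped the day 2 ratios was not tested. On day 3 Chrng remained higher by 0.47 (0.35 to 0.59), Chrna1 by 0.28 (0.19 to 0.38) and Chrnd by 0.22 (0.09 to 0.35), while Chrnb1 was at -0.09 (-0.24 to 0.06). The median was 0.25 for the 4 subunits on day 3 and 0.03 for the 298 of like level. On day 0 all 4 ratios were below 0, from -0.14 to -0.08, with intervals that held 0.

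Lrp4, Dok7 and Musk moved otherwise. Lrp4 was lower in siKlf5 on day 0 (-0.41, interval -0.74 to -0.09) and day 2 (-0.36, -0.51 to -0.22) but not on day 1 (0.20, -0.08 to 0.48) or day 3 (-0.08, -0.24 to 0.08). Dok7 was lower on day 2 (-0.45, -0.80 to -0.10). On day 2 Agrn (-0.07) and Rapsn (-0.12) were below 0 too, with intervals that held 0, and 10.3% of all transcripts lay below beyond counting error. The day 2 pair is the one that differed most in depth. Whether depth shaped the ratios of these genes was not tested, and they were not set beside transcripts of their own level. Musk was higher on day 3 by 0.58 (0.32 to 0.84), after -0.17 (-0.40 to 0.06) on day 2. Agrn exceeded control on day 1 only, by 0.56 (0.04 to 1.09), the day of its low siCtrl value. Rapsn had no interval that left out 0.

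In counts, no member lay above control beyond counting error on day 0 and 1 lay below, beside 4.42% and 5.14% of all transcripts. On day 1 it was 3 above and 0 below (7.15% and 5.53% of all), on day 2 it was 4 above and 2 below (7.2% and 10.3%), and on day 3 it was 4 above and 0 below (6.5% and 7.16%). Counting intervals narrow with level, and of the 298 transcripts of like level to the 4 subunits 6.38%, 7.72%, 51.0% and 11.1% lay above on days 0 to 3. Below lay 11.1%, 13.8%, 2.35% and 10.4% of the 298. The intervals compare 2 libraries and not the conditions. Past the 1.5-fold cutoff, no member was higher on any day, beside 9.22%, 16.4%, 7.69% and 10.7% of all transcripts on days 0 to 3. Chrne alone was lower past that cutoff, on day 0 (3 against 0 reads) and day 3 (55 against 29 reads, log2 ratio -0.72, interval -2.68 to 1.01), where 11.1% and 12.5% of all transcripts were. On days 1 and 2 no member was lower past it, beside 11% and 13%. Musk stood just inside the cutoff on day 3 at 1.496-fold, and Agrn on day 1 at 1.473-fold.

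**Figure D5:**
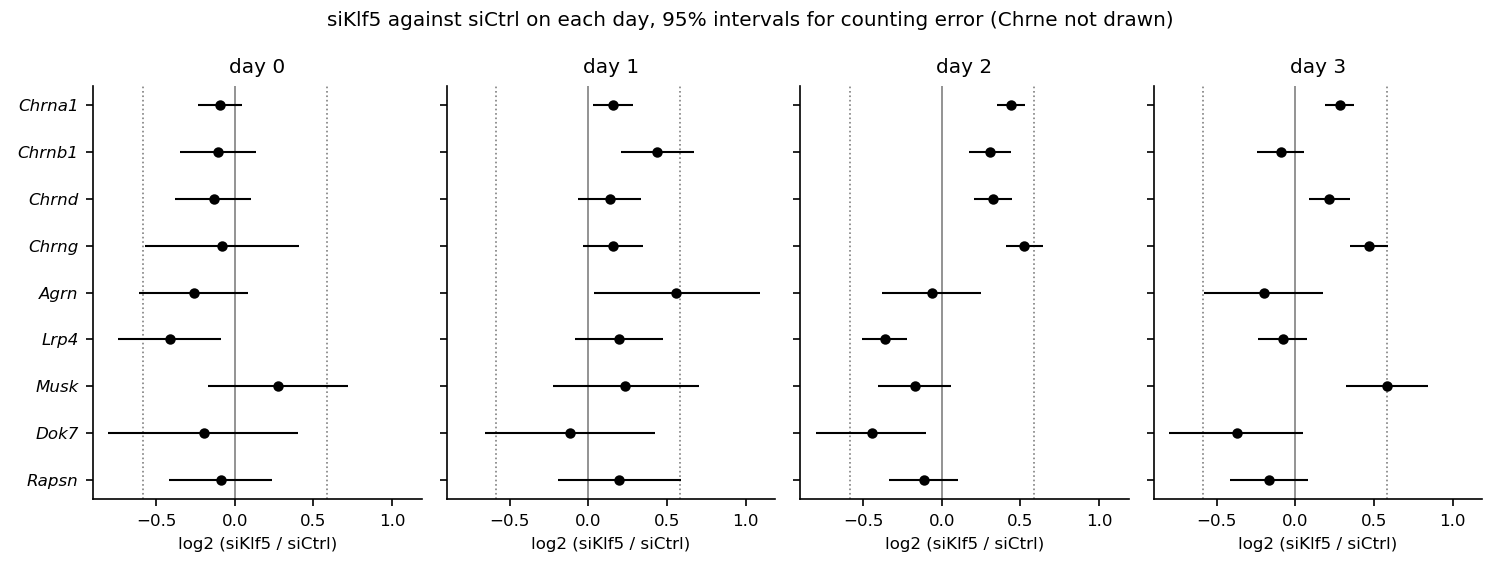
Log2 ratio of siKlf5 to siCtrl (horizontal axes) for 9 genes on each day, with 95% exact intervals for counting error as bars, a solid line at 0 and dotted lines at 1.5-fold. Chrna1, Chrnb1, Chrnd and Chrng all lie to the right of 0 on day 2, at 0.31 to 0.53, as did 91.3% of 298 other transcripts of like level. Chrne is not drawn because its intervals are wider than the axes.

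A trend of the difference over the days was tested in its own limma fit with 2 residual degrees of freedom. None of the 10 was called, and neither was any transcript (0% in both directions). Without adjustment Chrng alone passed 0.05 among the 10, beside 4.85% of all transcripts. Its siKlf5 to siCtrl difference grew by 0.20 per day on the log2 scale (95% interval 0.02 to 0.38, adjusted p = 0.976). For Chrna1 the slope was 0.14 (-0.05 to 0.33) and for Chrnd 0.12 (-0.05 to 0.30).

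The myogenic factors that bind E-boxes were set beside these values. Myog was at 479, 1896, 2061 and 2293 FPKM in siCtrl and 328, 1517, 1740 and 1386 in siKlf5, below control beyond counting error on 4 of 4 days and furthest on day 3 (-0.73, interval -0.87 to -0.58). In the limma fit Myog had -0.46 ± 0.10 with adjusted p = 0.228, so it was not called over the 4 days, and the difference between Myog and the subunits was not tested. Myod1 was at 502, 494, 479 and 529 FPKM in siCtrl and 398, 454, 533 and 557 in siKlf5 (-0.06 ± 0.09, adjusted p = 0.883).

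The rest of the pathway was read from lists. Of 11 nicotinic subunits of nerve and other tissue, 6 were at 0 in every library, and only Chrna10 (at most 3.57 FPKM) and Chrnb2 (at most 2.54) had a mean of at least 1. Neither passed limma on day 3 (adjusted p = 0.0686 and 0.476). Of 21 genes that carry the signal from MuSK to the cytoskeleton, 3 rose by day 3 and 3 fell, with a median of -0.19. Of all transcripts, 12.8% rose and 17.6% fell in that contrast. The kinase Fyn rose (1.11 ± 0.12, adjusted p = 0.000404) while its relative Src fell (-0.84 ± 0.11, adjusted p = 0.00097). Yes1 fell too (-0.76 ± 0.17, adjusted p = 0.0127), and Macf1, a microtubule linker that binds rapsyn, rose (0.68 ± 0.17, adjusted p = 0.0213).

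Of 16 tested genes of the synaptic cleft and the dystrophin-related anchors, 10 rose and 1 fell by day 3, with a median of 0.95, where 12.8% of all transcripts rose and 17.6% fell. Colq, the collagen tail of acetylcholinesterase, went from 1.62 to 25.8 FPKM in siCtrl and from 2.38 to 19.8 in siKlf5 (3.46 ± 0.48, limma adjusted p = 0.00137). The enzyme gene Ache itself went from 1.61 to 21.2 in siCtrl but only from 1.01 to 6.84 in siKlf5, and rose over both (3.14 ± 0.75, adjusted p = 0.0156). Nid2, a basement membrane protein, rose by 2.83 ± 0.27 (adjusted p = 0.000227). Col13a1, a transmembrane collagen of the synapse, was at 1.07, 2.73, 12.7 and 38.1 FPKM in siCtrl and at 0, 0, 0 and 1.76 in siKlf5. Its limma value of 4.62 (adjusted p = 0.0414) rests on the pseudocount.

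Between the siRNAs no gene of these lists was called over the 4 days, but single days held ratios past 1.5-fold. Ache was lower in siKlf5 on day 2 (22.4 against 7.46 FPKM, log2 ratio -1.57, interval -3.25 to -0.23) and day 3 (21.2 against 6.84, -1.62, -3.54 to -0.07), with a limma value of -1.02 (adjusted p = 0.579). Col13a1 had 122 reads in siCtrl and 0 in siKlf5 on day 2, and 223 against 9 on day 3 (-4.36, -8.28 to -2.24), with adjusted p = 0.209 in limma. Nid2 was higher on day 1 by 1.06 (0.75 to 1.38) and day 2 by 0.65 (0.50 to 0.80). Past the cutoff, 1 gene of the cleft and anchor list was higher and 4 were lower on day 2, beside 7.69% and 13% of all transcripts. Among the 4 was Utrn, the synaptic relative of dystrophin (-0.64, -0.80 to -0.48), which was at 0.05 (-0.12 to 0.23) on day 3. On day 3, 2 genes of that list were higher and 3 lower, beside 10.7% and 12.5% of all transcripts. Of the 21 signalling genes, Apc (-0.85, -1.13 to -0.59) and Abl2 (-0.72, -0.94 to -0.50) were lower past it on day 2 and Pak1 higher on day 3 (0.62, 0.32 to 0.92). By day 3 Apc was at -0.12 (-0.40 to 0.16) and Abl2 at 0.13 (-0.13 to 0.39). All day 2 ratios share the pair of libraries that differed most in depth, and its effect was not tested.

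Among the neuregulin receptors and regulators of synaptic transcription, 5 of 12 rose by day 3 and 2 fell, beside 12.8% and 17.6% of all transcripts. Erbb3 rose the most (3.76 ± 0.26, limma adjusted p = 4.96e-05), then Hdac9 (2.19 ± 0.40, adjusted p = 0.00522), Myog (2.17 ± 0.14, adjusted p = 3.07e-05) and Erbb2 (1.68 ± 0.18, adjusted p = 0.000395). Erbb2 and Erbb3 encode the pair that carries the neuregulin signal. Both stood lower in siKlf5 on day 3, at 181 against 344 FPKM for Erbb2 (-0.93, interval -1.14 to -0.72) and 304 against 490 for Erbb3 (-0.69, -0.88 to -0.50). Day 2 gave -0.69 (-0.91 to -0.48) for Erbb2 and -0.93 (-1.11 to -0.76) for Erbb3. Erbb3 was furthest below control on day 0 (-1.48, -2.29 to -0.75). The intervals of both on day 1 and of Erbb2 on day 0 held 0. Yet limma did not call Erbb2 or Erbb3 over the 4 days (adjusted p = 0.237 for both). Of the genes of the N-box factor GABP, Gabpa had -0.13 ± 0.12 by day 3 (adjusted p = 0.447) and Gabpb2 fell (-0.95 ± 0.21, adjusted p = 0.0116). Gabpb1 was not called (-0.48 ± 0.17, limma adjusted p = 0.0714). The other gene of this list that fell was Etv4 (-1.33 ± 0.15, limma adjusted p = 0.000557). Of 5 glycosylation genes linked to congenital myasthenia, none rose and Alg2 fell (-0.52 ± 0.16, adjusted p = 0.0416), beside the same 12.8% and 17.6% of all transcripts.

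The transcripts whose pattern came closest to a member were found by Pearson's r of log2(FPKM + 0.1) over the 8 libraries, among 11590 others (11591 for Chrne) with a mean FPKM of at least 10. For Chrng they were Mir6923 (r = 0.999), Il2rb (0.996) and Tnni1 (0.996), a slow troponin. Mir6923 lies inside the span of the embryonic myosin gene Myh3 on the same strand. For Chrna1 they were Mpp3 (0.991), Pdlim3 (0.990) and Atp6v0a2 (0.990). For Chrne they were Mapk12 (0.982), Gprc5b (0.981) and Rprd1b (0.976), set against a member at 0 in 3 libraries. With so few points likeness is common: 271 transcripts reached r of 0.95 with Chrng, 105 with Chrna1 and 16 with Chrne, and the libraries share day and depth.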

How the data were processed

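Polyadenylated RNA was measured in 8 libraries, 1 for each siRNA and day, so no group has a replicate. Per the labels and file header, the authors aligned paired reads with STAR to mm9 and used HOMER to count RefSeq exons on both strands, keeping at most 3 reads per position and 1 transcript per gene. The authors deposited FPKM scaled to 10000000 per library, which is tested here, and log2 values of FPKM plus 1 with a small added number; 1 log2 column names no day and was not used.

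Whole reads were recovered from FPKM (100% of the low values checked lay within 0.1 of whole). Since reads came in clumps of 6, the 95% exact intervals (Clopper-Pearson for ratios) use reads divided by 6. limma 3.58.1 in R 4.3.3, checked on simulated data, was run with a trended prior on log2(FPKM + 0.1) for transcripts with a mean of at least 1, with Benjamini-Hochberg adjustment at 0.05. The simulation drew independent normal noise, without clumped reads or the limit of 3 reads per position. It changed only transcripts with a mean above that of Chrne, so it does not cover that gene. Each day rests on 2 libraries and each siRNA on 4, so p-values assume that the siRNA difference is alike on all days. Single-library ratios of 1.5-fold (siRNA) and 2-fold (day) carry no test.

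The members and lists were chosen with earlier results of these data known. All members are named, as are the leading called genes of each list and the 3 transcripts most like Chrna1, Chrng and Chrne. Genes named for a ratio on a single day were chosen after their values were seen. Promoter sequences are from RefSeq (GRCm38.p6).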

Additional observations from a re-analysis of the deposited data

How the results depend on the processing

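The number of members called between siRNAs stayed at 0 in every fit, and that for the trend at 0 (leave-one-out range 0 to 0 for both). The number called on day 3 was 6 to 9 when 1 library was left out, lowest without siCtrl day 3. Of the values for single members and their counts, 139 on day 3 kept direction and side of the threshold and 10 lost the call, namely those of Chrne (7), Rapsn (2) and Dok7 (1). For Chrne these included a pseudocount of 0.01 (7.06, limma adjusted p = 0.0533) and no filter (5.35, adjusted p = 0.189). Of the siRNA differences 118 were unchanged in this sense and 1 turned, Agrn without day 1 (-0.17; the range over the days left out was -0.17 to 0.098). Of the trends 82 were unchanged and 7 turned, none of them called: Chrnb1 with median-ratio (0.0057) and upper-quartile scaling (0.0096) and without day 3 (0.21), Chrne (-0.36) and Lrp4 (-0.14) without day 0, and Agrn (0.097) and Musk (-0.22) without day 3. With the other end of the days left out, these trends were -0.26 for Chrnb1, -0.38 for Agrn and 0.17 for Musk without day 0, and 0.024 for Lrp4 without day 3. With a minimum mean of 5, which drops Chrne, 0 members were lower past 1.5-fold on days 0 and 3, and a 2-fold cutoff also left 0 on day 3. Upper-quartile scaling put 1 member, Musk, past 1.5-fold on day 3. With single reads rather than clumps, intervals lay above 0 for 1 member and below for 5 on day 0. Day 1 gave 8 above and 0 below, day 2 gave 4 and 4, and day 3 gave 4 and 6. The matching shares over all transcripts are not given here, so these counts are not read as a result about the members. The siRNA fit pairs the libraries of each day through its day term; without that term 0 members were called as well, with limma adjusted p of 0.999874 for Chrng. The planned fits on the log2 values were not run over 8 libraries, since 1 column could not be assigned. Depth limits Chrne, whose highest value rests on 55 reads. The causes of these changes were not tested.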
